A study of Mus musculus with 10 samples.

Results

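The hypoxia-inducible factors (HIF) and the enzymes that set their stability were followed in regulatory T (Treg) cells that lack the kinase LKB1. The set holds 9 genes of the 22180 that the arrays measured through a probe set with a single gene symbol. They are the alpha subunit genes Epas1, Hif1a and Hif3a, the beta subunit gene Arnt, the prolyl hydroxylase genes Egln1, Egln2 and Egln3, the asparaginyl hydroxylase gene Hif1an, and Vhl. All 9 were measured, each through its probe set of highest mean over the 10 arrays. The set was chosen by the Epas1 signal, which differed between the genotypes on these same arrays, so the genotype differences of the 9 genes are given as a description, without a test.

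The arrays held RNA of 5 samples labelled Stk11 deletion, described as LKB1-deficient, and 5 labelled WT, described as wild type. Stk11 is the gene of LKB1. All samples were Treg cells sorted, without culture, from mixed bone marrow chimeras, which are mice whose blood system was rebuilt from marrow of more than 1 donor genotype. The sources used here do not give the Cre driver or other means of deletion, the strain, the age, the tissue, the sort gate or whether each sample came from its own animal. P-values therefore refer to the variation among these samples, part or all of which may be technical. Running codes in the sample descriptions go from 1 to 3 for WT 1 to 3 and from 4 to 6 for LKB1-deficient 1 to 3. They are 7 and 8 for WT 4 and 5, and 9 and 10 for LKB1-deficient 4 and 5. From this order, replicates 1 to 3 of both genotypes were taken here as a first set of codes and replicates 4 and 5 as a second. This split is inferred, and the labels leave the meaning of the codes unstated.

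An alpha subunit pairs with ARNT on DNA to switch on genes of the low-oxygen response. When oxygen is present, the EGLN enzymes hydroxylate prolines of the alpha subunit with iron and 2-oxoglutarate, and the VHL ubiquitin ligase then marks it for destruction. The enzyme encoded by Hif1an hydroxylates an asparagine and so keeps the coactivators p300 and CBP away. Most of this control acts on the protein, whereas an array reports the transcript. In T cells, HIF-1 alpha is known for raising glycolysis and for shifting the balance between Th17 and Treg cells.

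Values are log2 signals as deposited, so a difference of 1 is a 2-fold change, and differences are LKB1-deficient minus WT. Array medians over all probe sets were 4.88 to 4.94 on LKB1-deficient arrays and 4.83 to 4.86 on WT arrays. Foxp3, the defining gene of Treg cells, was at 9.86 to 11.50 on LKB1-deficient arrays and at 10.95 to 11.19 on WT arrays. The low value was that of LKB1-deficient array 1, and the mean of 6 Treg markers was also lowest there, at 9.75, against 10.46 to 10.83 on LKB1-deficient arrays 2 to 5 and 10.60 to 10.66 on WT arrays. Over all arrays, 1 of the 6 Treg markers was lower at a limma adjusted p under 0.05, beside 0.83% of all genes. Cd3e, the T cell marker, was at 11.67 to 11.93 on LKB1-deficient arrays and at 11.86 to 11.98 on WT arrays, and the mean of 4 T cell markers was 10.95 to 11.25 in LKB1-deficient and 11.20 to 11.27 in WT cells. Stk11 averaged 6.42 ± 0.37 in LKB1-deficient cells and 6.78 ± 0.15 in WT cells (SD, n = 5 each), a difference of -0.36 (SE 0.16, limma adjusted p = 0.335). Its transcript was therefore not shown to be lower over all arrays, and LKB1-deficient arrays 4 and 5, at 6.71 and 6.78, lay inside the WT range of 6.61 to 6.95. Without LKB1-deficient arrays 1, 4 and 5 the Stk11 difference was -0.75 (adjusted p = 0.0178). Those 3 arrays had the highest Stk11 among the LKB1-deficient ones, which forces the larger difference. The sources used here do not name the deleted exons, so it is not known whether this probe set reports on them.

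Epas1, which encodes HIF-2 alpha, was high on all LKB1-deficient arrays. Its log2 signal was 6.62, 7.69, 7.20, 7.57 and 7.54 on LKB1-deficient arrays 1 to 5, against 5.58, 5.25, 5.41, 5.13 and 5.58 on WT arrays 1 to 5. The lowest LKB1-deficient array stood above the highest WT array, so the groups did not overlap. The means were 7.32 ± 0.44 in LKB1-deficient cells and 5.39 ± 0.20 in WT cells (SD, n = 5 each), a difference of 1.93 (SE 0.19), or 3.82-fold. The files hold no detection calls, and the WT signals may lie at background, in which case 3.82-fold is a lower bound. HIF-2 alpha is known from endothelial cells, from kidney cells that make erythropoietin and from the carotid body, and it drives a target set that overlaps that of HIF-1 alpha. In bulk RNA, more cells with the transcript and more transcript per cell cannot be told apart.

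The Epas1 difference was 1.76 in the first set of codes (3 arrays against 3) and 2.20 in the second (2 against 2). It lay between 1.84 and 2.11 when each array was left out in turn. Within its genotype, LKB1-deficient array 1 had the lowest Epas1, and also the lowest Hif1a, Arnt, Vhl, Egln1 and Egln3. It was thus lowest for 6 of the 9 genes, beside 26.1% of all 22180 genes.

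**Figure D1:**
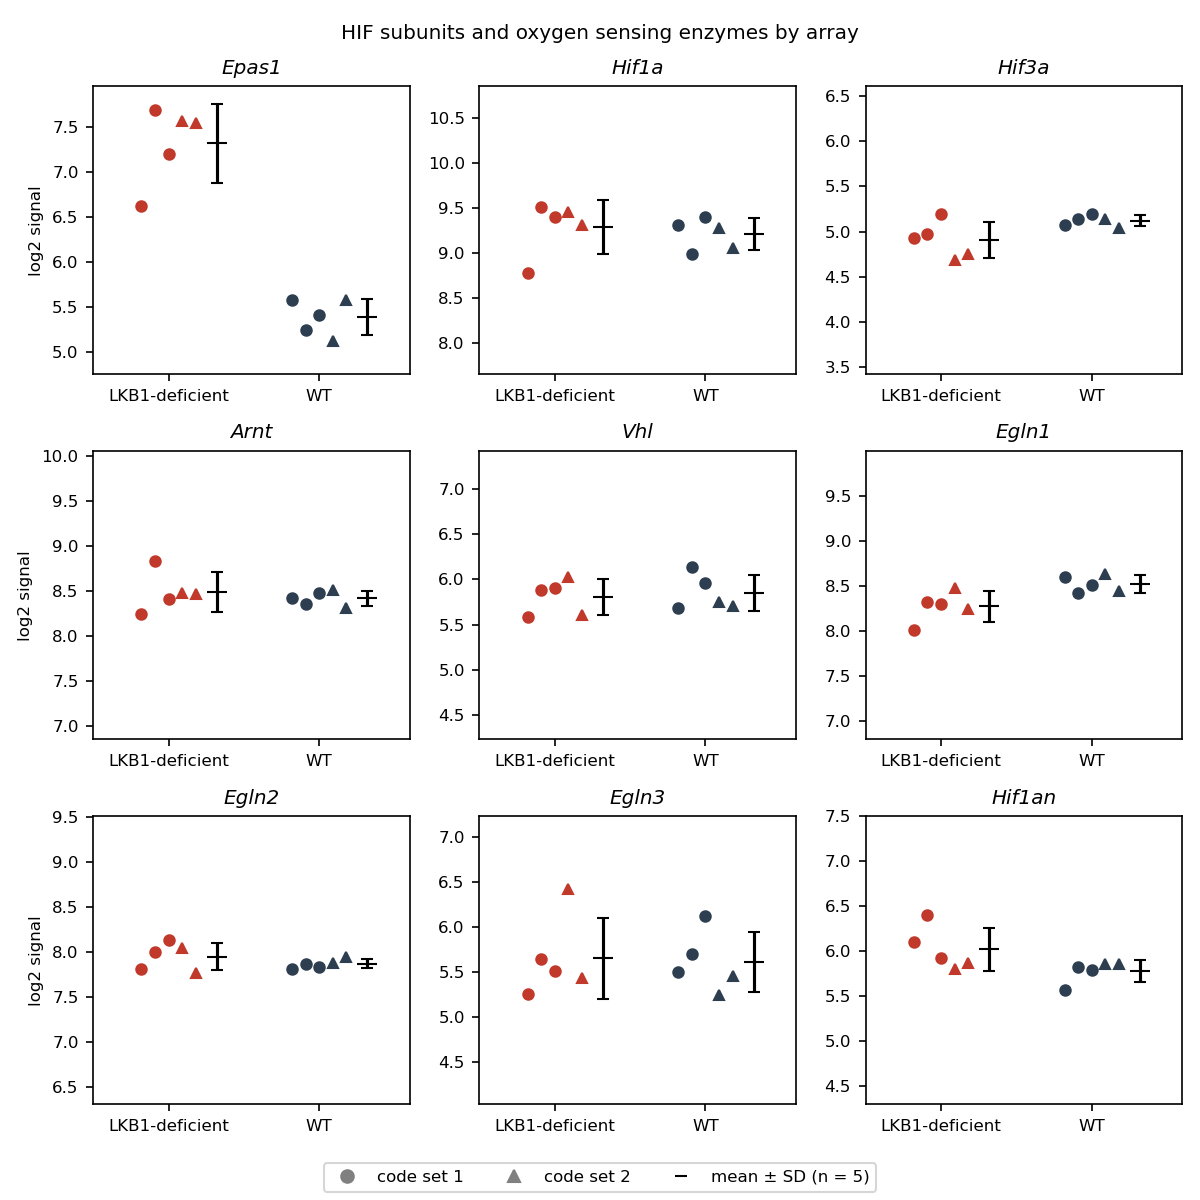
Log2 signal (y axis, each panel spanning the same number of log2 units) of the 9 genes on LKB1-deficient arrays (left, red) and WT arrays (right, dark). Circles are arrays of the first set of codes, triangles those of the second, and bars show the mean and SD of 5 arrays. Epas1 is the gene whose groups do not overlap (6.62 to 7.69 on LKB1-deficient arrays against 5.13 to 5.58 on WT arrays).

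The other alpha subunit genes showed no such gap. Hif1a, the gene of HIF-1 alpha, was at 8.78, 9.51, 9.40, 9.45 and 9.31 on LKB1-deficient arrays 1 to 5 and at 9.31, 8.99, 9.40, 9.28 and 9.05 on WT arrays 1 to 5. The groups overlapped, with LKB1-deficient array 1 below all others. The difference was 0.08 (SE 0.14), and it was -0.01 in the first set of codes and 0.21 without LKB1-deficient array 1. A second Hif1a probe set gave 6.70 ± 0.17 in LKB1-deficient cells and 6.57 ± 0.21 in WT cells (SD, n = 5 each), a difference of 0.13. A further probe set names Hif1a together with another gene and was not used.

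Hif3a encodes HIF-3 alpha, of which some splice forms restrain the other HIF proteins. It was at 4.93, 4.97, 5.20, 4.68 and 4.75 on LKB1-deficient arrays 1 to 5 and at 5.07, 5.14, 5.19, 5.14 and 5.04 on WT arrays 1 to 5. LKB1-deficient arrays 1, 2, 4 and 5 lay below every WT array, and array 3 lay above them all by a small margin. The difference was -0.21 (SE 0.10), with -0.10 in the first set of codes and -0.37 in the second. Leaving out LKB1-deficient arrays 1, 4 and 5 gave -0.03. A Hif3a signal this low may be background.

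Arnt, whose protein is the common partner of the alpha subunits, averaged 8.49 ± 0.22 in LKB1-deficient cells and 8.42 ± 0.08 in WT cells (SD, n = 5 each), a difference of 0.07 (SE 0.11). LKB1-deficient array 2, at 8.84, was above the other 9 arrays, which spanned 8.25 to 8.51, and without it the difference was -0.02.

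Among the oxygen sensing enzymes, Egln1 stood lower on most LKB1-deficient arrays. Egln1 encodes PHD2, the main prolyl hydroxylase of HIF-1 alpha, and is itself a known HIF target. It was at 8.01, 8.32, 8.30, 8.48 and 8.24 on LKB1-deficient arrays 1 to 5 and at 8.60, 8.42, 8.51, 8.63 and 8.44 on WT arrays 1 to 5. Of the 5 LKB1-deficient arrays, 4 were below every WT array, and array 4 lay within the WT range. The difference was -0.25 (SE 0.10), between -0.30 and -0.17 over the 20 other settings and subsets of arrays that were run. Some of these settings change only the error estimate or the genes kept, and cannot move the difference.

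The promoter of Egln1 is shown because this enzyme gene is both a sensor and a target of the pathway. HIF dimers bind the core letters ACGTG or GCGTG. The 250 bases before its annotated start (chr8:124949255-124949504, minus strand, RefSeq, GRCm38.p6) held 2 matches, on the gene's own strand, and capitals mark them.
Egln1 promoter: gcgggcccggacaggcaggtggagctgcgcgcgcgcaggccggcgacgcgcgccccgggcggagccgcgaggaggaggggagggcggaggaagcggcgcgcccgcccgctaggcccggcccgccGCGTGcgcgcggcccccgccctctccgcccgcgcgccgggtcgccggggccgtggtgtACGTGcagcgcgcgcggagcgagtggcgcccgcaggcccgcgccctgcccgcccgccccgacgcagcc
The GCGTG match ran from base -126 to -122 and the ACGTG match from base -68 to -64, counted back from the start site. Of 32851 promoter windows of this length, 38.6% held a match to either core on either strand. Promoter sequence was available for 8 of the 9 genes, and Epas1 was the missing entry. Hif1a had 3 matches, of which 2 overlap in the palindrome at bases -135 to -130. Hif3a had 2, Arnt and Egln3 had 1 each, and Egln2 had 4 and 1 in its 2 windows. Vhl and Hif1an had none.

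Egln2 encodes PHD1, which is set apart from its relatives by its nuclear location. It averaged 7.95 ± 0.15 in LKB1-deficient cells and 7.87 ± 0.05 in WT cells (SD, n = 5 each). The groups overlapped, and the difference was 0.08 (SE 0.09). Egln3 encodes PHD3, whose transcript is strongly induced by hypoxia in many cells. It was at 5.25, 5.64, 5.51, 6.42 and 5.43 on LKB1-deficient arrays 1 to 5, against 5.5, 5.70, 6.12, 5.24 and 5.46 on WT arrays 1 to 5. LKB1-deficient array 4 and WT array 3 were the high values, and the groups overlapped throughout. The difference of 0.04 (SE 0.21) was made of -0.31 in the first set of codes and 0.57 in the second.

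Hif1an encodes FIH, which blocks the transactivation domain of the alpha subunits. It was at 6.10, 6.40, 5.93, 5.80 and 5.87 on LKB1-deficient arrays 1 to 5 and at 5.57, 5.82, 5.79, 5.86 and 5.86 on WT arrays 1 to 5. LKB1-deficient arrays 1, 2, 3 and 5 were above every WT array, array 5 by a small margin. The difference was 0.24 (SE 0.12), with 0.42 in the first set of codes and -0.03 in the second. Vhl, which encodes the substrate receptor of the ubiquitin ligase, averaged 5.80 ± 0.20 in LKB1-deficient cells and 5.85 ± 0.20 in WT cells (SD, n = 5 each). Its difference was -0.05 (SE 0.12), and the sign turned in 4 of the 20 alternatives, some of which could not move it.

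**Figure D2:**
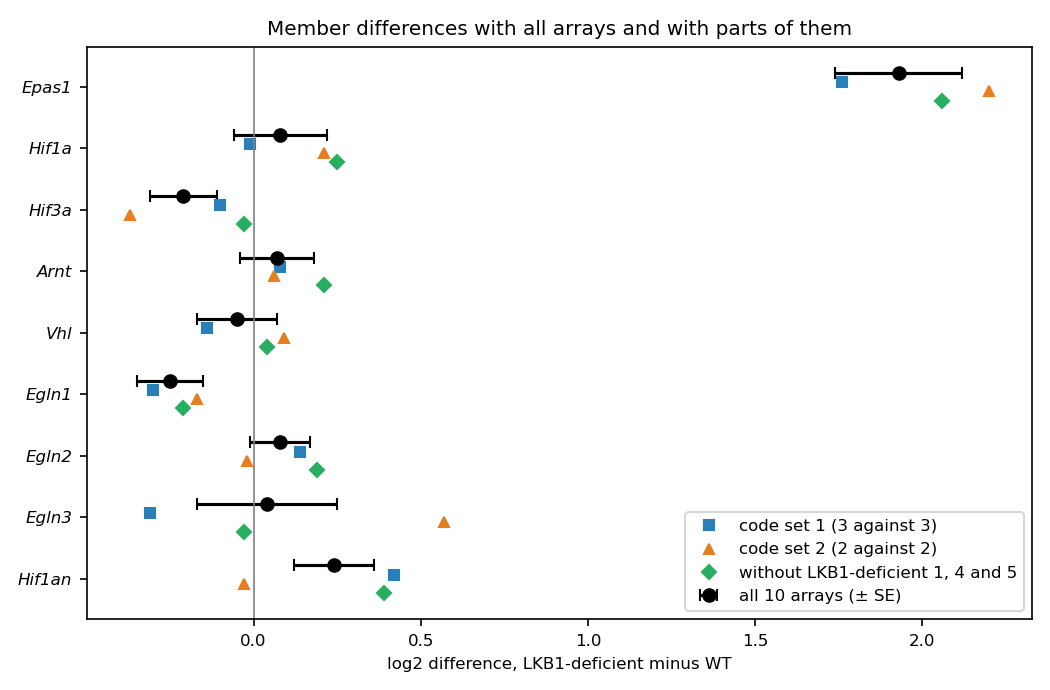
Log2 difference, LKB1-deficient minus WT (x axis), of the 9 genes (y axis). Black points with SE bars use all 10 arrays, squares the first set of codes, triangles the second, and diamonds all arrays but LKB1-deficient 1, 4 and 5. Epas1 stays between 1.76 and 2.20, while Egln3 and Hif1an differ between the sets (-0.31 and 0.57 for Egln3, 0.42 and -0.03 for Hif1an).

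Of the 9 differences, 6 were positive and 3 negative, with a median of 0.07 against 0.00 over all genes. In 1 of the 9, Epas1, the groups did not overlap, beside 4.71% of all 22180 genes. The set was chosen for this contrast, so nothing is read from its counts. Epas1 averaged 1.93 log2 units higher in LKB1-deficient cells, whereas the other 8 genes had differences between -0.25 and 0.24.

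The genes whose profile over the 10 arrays came nearest to that of Epas1 were found by the mean absolute difference of gene-centred log2 values. They were Pde7b (0.26), a phosphodiesterase of cyclic AMP, Plaur (0.32), the urokinase receptor, Fosl2 (0.32), an AP-1 factor, Tex2 (0.34) and Ifngr1 (0.35), a chain of the interferon gamma receptor. The median distance over all genes was 0.97, and the nearest of the other 8 HIF genes, Hif1an, was at 0.85, at rank 1548. A gene near Epas1 had to differ between the genotypes in the way Epas1 did, so this nearness is a description.

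The 5 neighbours were low on LKB1-deficient array 1 as Epas1 was. Pde7b was at 5.42 on that array, at 6.76 to 7.46 on LKB1-deficient arrays 2 to 5 and at 4.57 to 5.16 on WT arrays. Fosl2 was at 5.98 on that array, just below its WT range of 5.99 to 6.34, and at 7.68 to 8.17 on the other LKB1-deficient arrays. Ifngr1 was at 9.69 there, at 10.98 to 11.07 on LKB1-deficient arrays 2 to 5, and at 9.45 to 9.53 in WT cells. Epas1, at 6.62 on LKB1-deficient array 1, stayed 1.04 log2 units above its highest WT array.

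**Figure D3:**
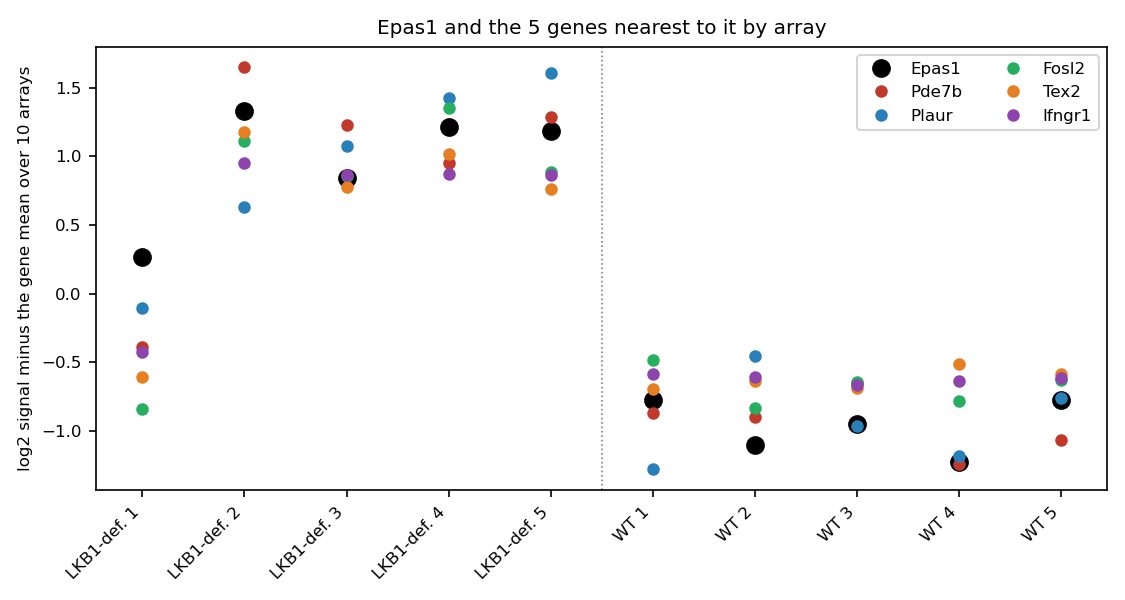
Log2 signal minus the gene's mean over 10 arrays (y axis) for Epas1 (large black points) and its 5 nearest genes, on LKB1-deficient arrays (left of the dotted line) and WT arrays (right). All 6 genes are lowest of the LKB1-deficient group on array 1, where Epas1 is at 6.62 log2 units before centring.

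Transcripts of other cell types were present at unequal levels and are given beside Epas1. The monocyte, macrophage and dendritic list (14 of 15 markers measured) reached mean log2 signals of 9.41 and 9.53 on LKB1-deficient arrays 4 and 5. It was at 6.76 to 7.36 on the LKB1-deficient arrays 1 to 3 and at 6.61 to 7.05 in WT cells. Its defining marker Csf1r showed 10.55 and 10.49 for LKB1-deficient arrays 4 and 5, 7.24 to 7.32 for arrays 1 to 3 and 6.94 to 7.53 for WT arrays. The B and plasma list (7 of 8 markers) showed 6.98, 6.63 and 6.90 for LKB1-deficient arrays 1, 4 and 5. It showed 5.52 and 5.56 for arrays 2 and 3 and 5.23 to 5.63 for WT arrays. On LKB1-deficient arrays 2 and 3, where both lists were near their WT ranges, Epas1 was at 7.69 and 7.20, and its difference was 2.06 when arrays 1, 4 and 5 were left out.

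Markers of endothelial cells, a known site of Epas1 expression, overlapped between the genotypes. The 8 endothelial markers averaged 4.86 to 5.06 on LKB1-deficient arrays and 4.83 to 5.00 on WT arrays, and Cdh5 was at 4.59 to 5.34 on LKB1-deficient arrays and 4.57 to 5.21 on WT arrays. The stromal and epithelial list was at 4.12 to 4.35 on LKB1-deficient arrays and 4.31 to 4.42 on WT arrays, with Col1a1 at 4.83 to 4.99 in LKB1-deficient and 4.98 to 5.11 in WT cells. The NK list was at 5.11 to 6.13 on LKB1-deficient arrays and 5.07 to 5.23 on WT arrays, with Ncr1 at 4.0 to 4.85 in LKB1-deficient and 3.81 to 4.6 in WT cells. The neutrophil list was at 4.15 to 5.46 on LKB1-deficient arrays and 4.28 to 4.64 on WT arrays. S100a8 was at 4.49 (array 2) to 9.26 (array 1) on LKB1-deficient arrays and at 5.58 to 6.45 on WT arrays. The erythroid and platelet list (4 of 8 markers) was at 5.56 to 6.16 on LKB1-deficient arrays and 5.22 to 5.41 on WT arrays. The CD8 T list was at 6.88 to 7.18 on LKB1-deficient arrays and 6.38 to 6.71 on WT arrays, with Cd8a at 5.90 to 6.70 in LKB1-deficient and 5.12 to 5.80 in WT cells. These list ranges do not overlap for the erythroid and platelet list and for the CD8 T list, and the part of such cells in the Epas1 signal was not tested. At a limma adjusted p under 0.05, 1 marker each of the CD8 T, NK, and erythroid and platelet lists was higher. In the NK list 1 marker was lower. The shares over all genes were 0.234% higher and 0.83% lower.

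**Figure D4:**
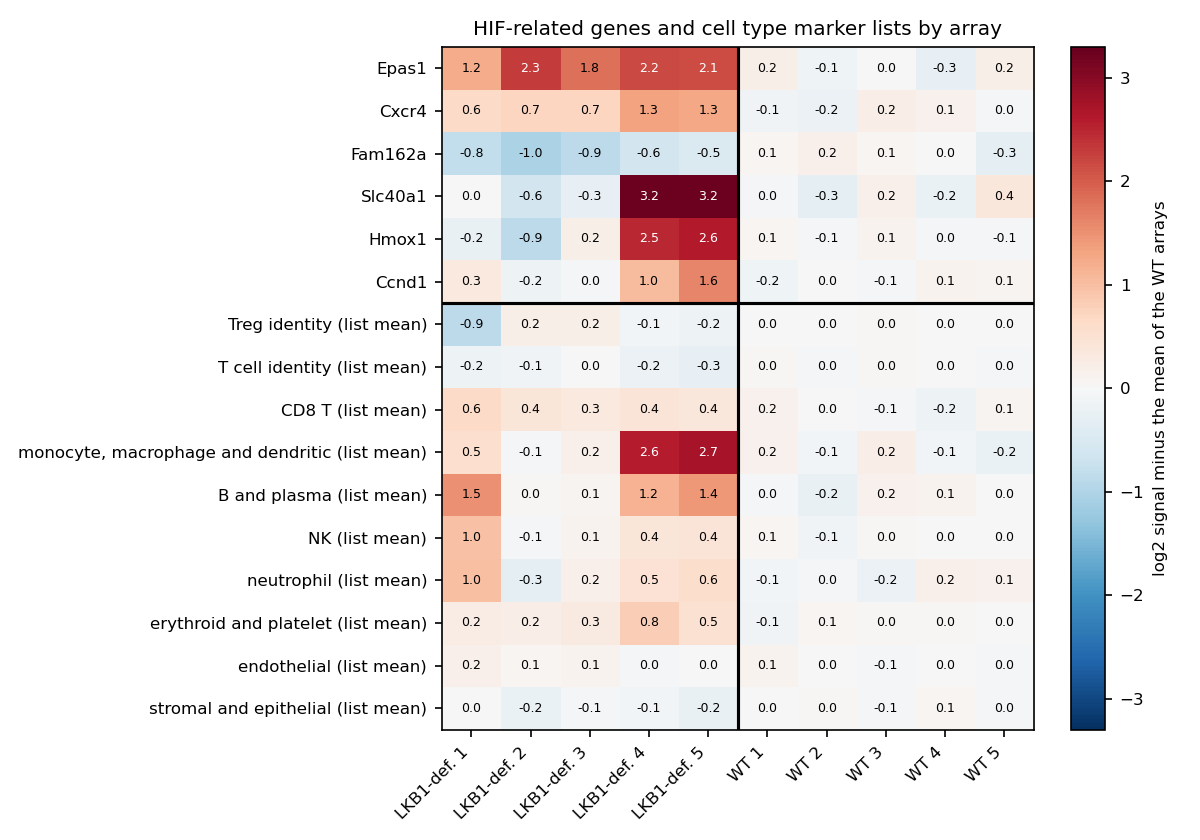
Log2 signal minus the mean of the 5 WT arrays (colour and printed values) for 6 HIF-related genes (top) and the mean of 10 marker lists (bottom), LKB1-deficient arrays left of the vertical line and WT arrays right of it. Slc40a1 and Hmox1 are high on LKB1-deficient arrays 4 and 5, as is the monocyte, macrophage and dendritic list, while Epas1 is high on all 5.

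Outside the 9 genes, 6 lists of pathway genes were followed, and 111 of their 125 entries were measured. Of the 111 genes, 1 rose, 2 fell and 108 did not pass an adjusted p of 0.05 in limma, beside 0.234% higher and 0.83% lower (1.06% together) over all genes. A second quantile normalization turned the split of 52 higher and 184 lower genes into 67 and 103. The groups did not overlap in 9 of the 111, 2 higher and 7 lower, beside 0.996% and 3.71% of all genes. The list medians lay between -0.15 and 0.10, against 0.00 over all genes.

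Cxcr4 and Fam162a were the HIF targets that passed. Cxcr4, the CXCL12 receptor that guides and retains lymphocytes, was at 9.0, 9.07, 9.07, 9.70 and 9.64 on LKB1-deficient arrays 1 to 5, against 8.25, 8.17, 8.59, 8.51 and 8.34 on WT arrays 1 to 5. All 5 LKB1-deficient arrays were above all WT arrays. Cxcr4 rose by 0.93 (SE 0.16, 1.90-fold, adjusted p = 0.0192). Its difference was 0.71 in the first set of codes and 1.24 in the second (limma adjusted p = 0.204 and 0.00814). Arrays 4 and 5, the highest for Cxcr4, also had the highest monocyte, macrophage and dendritic list, and leaving out LKB1-deficient arrays 1, 4 and 5 gave a difference of 0.70 (adjusted p = 0.0322). Leaving out WT 1, 2, 4 or 5 ended the call, with adjusted p between 0.0526 and 0.0651.

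Fam162a, which encodes a mitochondrial protein that HIF-1 induces and that promotes cell death, went the other way. It was at 8.19, 7.97, 8.15, 8.41 and 8.53 on LKB1-deficient arrays 1 to 5, against 9.07, 9.17, 9.08, 8.99 and 8.72 on WT arrays 1 to 5, again with no overlap. It fell by 0.75 on the log2 scale (SE 0.12, 1.69-fold lower, adjusted p = 0.0170). Its difference was -1.0 in the first set of codes and -0.38 in the second, neither past the threshold (adjusted p = 0.123 and 0.375). Leaving out WT 1, 2, 3 or 4 ended the call, with adjusted p between 0.0516 and 0.0623.

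The promoters of these target genes are shown because their transcripts passed in opposite directions, and capitals again mark matches to ACGTG or GCGTG on either strand, the other strand reading CACGT or CACGC.
Cxcr4 promoter, chr1:128592300-128592549, minus strand: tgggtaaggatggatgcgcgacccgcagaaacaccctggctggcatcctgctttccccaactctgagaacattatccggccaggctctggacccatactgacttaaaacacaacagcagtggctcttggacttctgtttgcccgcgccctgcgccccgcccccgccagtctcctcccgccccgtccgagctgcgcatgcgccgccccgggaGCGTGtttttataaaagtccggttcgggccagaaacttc
Fam162a promoter, chr16:36071562-36071811, minus strand: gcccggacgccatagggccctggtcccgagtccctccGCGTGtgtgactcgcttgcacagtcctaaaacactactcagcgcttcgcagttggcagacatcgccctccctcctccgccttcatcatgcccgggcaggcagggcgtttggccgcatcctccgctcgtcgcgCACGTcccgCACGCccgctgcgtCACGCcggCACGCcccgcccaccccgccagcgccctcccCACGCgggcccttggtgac
Cxcr4 had 1 match in its 250 bases, from base -39 to -35, and Fam162a had 6. Npas4, a gene that fell and is described below, had 1. How often a window holds 6 matches was not counted. A match is a run of letters and not a measured binding site.

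The remaining 27 of 29 hypoxia-inducible targets outside glucose metabolism did not pass, and the list median was -0.01, with 14 positive and 15 negative differences. Car9, a carbonic anhydrase much used as a hypoxia marker, was at 5.84 to 6.47 on LKB1-deficient arrays and 5.37 to 5.68 on WT arrays. Its groups did not overlap, and its difference was 0.51 (SE 0.12, adjusted p = 0.0741). Vegfa, the angiogenic growth factor, was at 5.37 to 5.81 on LKB1-deficient arrays and 5.18 to 5.62 on WT arrays, a difference of 0.19 (SE 0.12, adjusted p = 0.512). In this list 5 genes had no overlap, 2 higher and 3 lower, beside 0.996% and 3.71% of all genes. Besides Fam162a, the lower ones were Mif (-0.26, limma adjusted p = 0.172) and Ero1a (-0.17, adjusted p = 0.377). Vegfa, Mif and Ero1a were named after their values were seen.

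**Figure D5:**
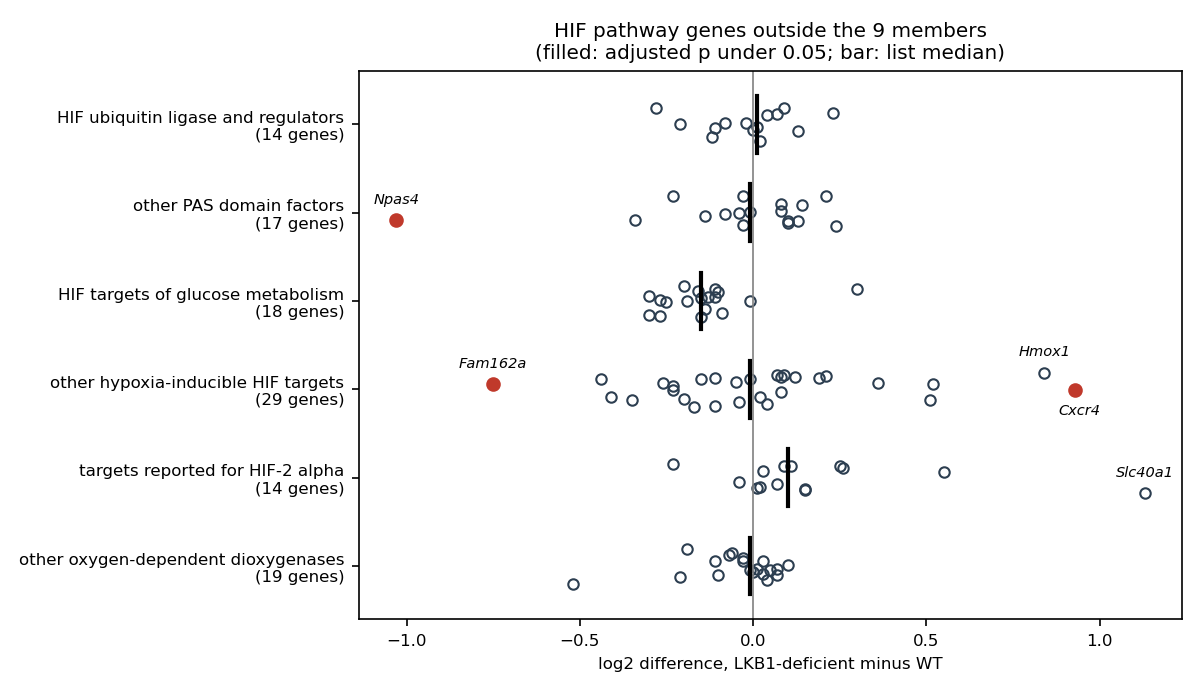
Log2 difference, LKB1-deficient minus WT (x axis), of 111 measured genes in 6 HIF pathway lists (y axis). Filled red points passed an adjusted p of 0.05 (Npas4 at -1.03, Fam162a at -0.75, Cxcr4 at 0.93), open points did not, and bars are list medians, the lowest being -0.15 for the glucose metabolism list.

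Glycolytic targets, which HIF-1 is known to induce, had small and mostly negative differences. Of 18 measured glucose metabolism targets, 17 had negative differences (94.4%, beside 49.2% of all genes), with a median of -0.15. With the dimmest 40% of genes removed, all 18 stayed, and the median was -0.041 over the remaining genes and -0.15 over the list. In limma, 0 of the 18 passed at the adjusted threshold. An unadjusted p under 0.05 was reached by 5, beside 3103 of all 22180 genes. Gapdh was at 11.27, 11.44, 11.45, 11.56 and 11.55 on LKB1-deficient arrays 1 to 5, against 11.86, 11.70, 11.71, 11.65 and 11.70 on WT arrays 1 to 5. Its groups did not overlap, and its difference was -0.27 (SE 0.09, adjusted p = 0.174). Slc2a1, the glucose transporter GLUT1, was likewise without overlap, at 8.12 to 8.66 on LKB1-deficient arrays and 8.69 to 8.83 on WT arrays, with a difference of -0.30 (SE 0.11, adjusted p = 0.250). Pgk1, phosphoglycerate kinase, was at 8.70 to 9.16 on LKB1-deficient arrays and 9.07 to 9.36 on WT arrays (-0.30, SE 0.11, adjusted p = 0.229). Without LKB1-deficient arrays 1, 4 and 5 the difference was -0.10 for Slc2a1, -0.27 for Gapdh and -0.39 for Pgk1.

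The exception was Slc16a3, the lactate exporter MCT4, named after its values were seen, at 5.94 to 6.34 on LKB1-deficient arrays and 5.75 to 6.40 on WT arrays (0.30, SE 0.14, adjusted p = 0.348). The mean log2 signal of the 18 genes was 7.07 to 7.25 on LKB1-deficient arrays and 7.28 to 7.36 on WT arrays, with no overlap. The list median stayed negative in all 20 alternatives (-0.19 to -0.09), of which the trended robust prior and the blocks could not move it. The number of negative differences was 11 in the second set of codes and 14 without LKB1-deficient arrays 1, 4 and 5.

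Targets reported for HIF-2 alpha in other cells gave no called gene. Of 14 measured, 12 had positive differences, beside 11270 of all 22180 genes, and the list median was 0.10. In limma 0 passed, and 0 had an unadjusted p under 0.05, beside 3103 of all genes. Slc40a1, the iron exporter ferroportin, was at 6.44, 5.82, 6.17, 9.67 and 9.67 on LKB1-deficient arrays 1 to 5, against 6.40, 6.13, 6.59, 6.22 and 6.80 on WT arrays 1 to 5. It was high on the arrays with the high monocyte, macrophage and dendritic list, and its difference of 1.13 (SE 0.71, adjusted p = 0.523) was -0.43 without LKB1-deficient arrays 1, 4 and 5. Hmox1, the haem oxygenase of the hypoxia-inducible list, had a similar shape, with 8.94, 8.32, 9.37, 11.67 and 11.78 on LKB1-deficient arrays 1 to 5 and 9.11 to 9.28 on WT arrays. Slc40a1 and Hmox1 were named after their values were seen.

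Ccnd1, the cell cycle gene cyclin D1, was at 6.48, 5.99, 6.11, 7.19 and 7.75 on LKB1-deficient arrays 1 to 5, against 6.0 to 6.27 on WT arrays. The difference was 0.55 (SE 0.28, adjusted p = 0.410), and it became -0.10 when LKB1-deficient arrays 1, 4 and 5 were left out. Arg1, arginase 1, differed by 0.26 (SE 0.15, adjusted p = 0.479), and Pou5f1, the pluripotency factor Oct4, by -0.23 (SE 0.11, adjusted p = 0.368). Without those 3 arrays the list had 7 positive and 7 negative differences and a median of 0.01.

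Among other factors with a PAS domain, the fold that HIF subunits share, 1 of 17 fell. Npas4, known as a calcium-induced factor of neurons, was at 4.94, 4.57, 4.69, 5.18 and 5.13 on LKB1-deficient arrays 1 to 5, against 5.71, 5.88, 6.32, 5.71 and 6.02 on WT arrays 1 to 5. The groups did not overlap, and Npas4 fell by 1.03 on the log2 scale (SE 0.15, 2.04-fold lower, adjusted p = 0.0112). Its LKB1-deficient signals may lie at background, in which case that fold is a lower bound. It passed in all 10 fits that left out 1 array (adjusted p up to 0.0401), and the difference was -1.24 and -0.71 in the first and second sets of codes (adjusted p = 0.133 and 0.110). Leaving out LKB1-deficient arrays 1, 4 and 5 gave -1.30. Sim2 (-0.23, adjusted p = 0.287) and Arntl2, a clock factor (0.24, adjusted p = 0.380), did not pass, and the list median was -0.01.

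The ubiquitin ligase and regulator list had 14 measured members, none past the threshold in limma. Beside 3103 of all 22180 genes, 1 gene of the list had an unadjusted p under 0.05. That gene was Elob, elongin B, a partner of VHL in the ligase, at 10.83 to 10.98 on LKB1-deficient arrays and 11.02 to 11.14 on WT arrays. Its groups did not overlap, and the difference was -0.21 (SE 0.08, adjusted p = 0.224). Eloc, elongin C, differed by -0.28 (SE 0.17, adjusted p = 0.493) and Siah1b, of the SIAH ubiquitin ligases that act on EGLN proteins, by 0.23 (SE 0.14, adjusted p = 0.516). The list mean was 7.81 to 7.90 on LKB1-deficient arrays and 7.81 to 7.94 on WT arrays.

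Other dioxygenases that use oxygen, such as histone demethylases and TET enzymes, gave 0 called of 19 in limma. Of the 19, 1 had an unadjusted p under 0.05, beside 3103 of all 22180 genes. P4htm, a membrane-bound prolyl hydroxylase related to the EGLN enzymes, was at 4.62 to 5.30 on LKB1-deficient arrays and 5.18 to 6.03 on WT arrays (-0.52, SE 0.16, adjusted p = 0.167). Ogfod1 (-0.21, adjusted p = 0.507) and Alkbh5, an RNA demethylase (-0.19, adjusted p = 0.530), did not pass. The list median was -0.01, with 8 positive and 11 negative differences.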

How the data were processed

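Total RNA of sorted Treg cells (5 LKB1-deficient and 5 WT samples) was converted to biotinylated cDNA by NuGEN's WTA Pico v2 method and hybridised to 1 array each, per the labels' protocols. The authors deposited log2 values, made with RMA and Partek 6.6 per the submitters' processing notes; the sources used here give neither the order and settings of the steps nor a genome build. RMA's quantile step hides a shift common to all transcripts, and amplification can compress differences. Detection calls were not used here.

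Of 41345 probe sets, 23521 named 1 gene symbol, 1814 several and 16010 none. Each gene took its probe set of highest mean, which left 22180 genes and no filter on low values. No column came from outside the series, and no pair of arrays was identical. Genotypes were compared in limma 3.58.1 (R 4.3.3; lmFit, eBayes, no covariate) with Benjamini-Hochberg adjustment over all 22180 genes, called under 0.05. On simulated data for this comparison with 22180 genes, the share of changed genes recovered was 32% at 0.5 log2 units, 92% at 1, 94% at 1.5 and 100% at 2. The simulation drew each gene on its own and left out array effects that many genes share. These shares may therefore not hold for the real arrays. Precision is limited by how many arrays there are.

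The 9 genes and all lists were chosen with earlier results of these data known. Named were the 9 genes, Stk11, up to 6 called genes of each of 6 pathway lists by smallest p (filled to 3 with the next smallest p), the defining marker of each cell type list where measured (those of the B and plasma and of the erythroid and platelet lists were not), and the 5 genes nearest to Epas1. Alternatives were another choice of probe set, a filter on the dimmest 40% of genes, other scalings and priors, blocks, sets of codes, and arrays left out. Promoters came from the RefSeq table of GRCm38.p6.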

Additional observations from a re-analysis of the deposited data

Results flagged for a closer look

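In each group of 5 arrays, a value was taken as standing apart when its gap to the nearest array exceeded 0.71 of the group's range (Dixon's limit for 5 values). Of 66 groups over 33 named genes, 5 held such an array, where chance gives about 1 in 20. LKB1-deficient array 1 stood apart in 4 of them. It was at 8.78 for Hif1a (the other 4 at 9.31 to 9.51), at 5.98 for Fosl2 (7.68 to 8.17), at 7.72 for Tex2 (9.09 to 9.50) and at 9.69 for Ifngr1 (10.98 to 11.07). Foxp3 and the Treg list were also lowest on this array, at 9.86 and 9.75, and 5 lists of other cells were highest of all arrays there: B and plasma (6.98, others at most 6.90), NK (6.13, others at most 5.61), neutrophil (5.46, others at most 5.04), CD8 T (7.18, others at most 6.98) and endothelial (5.06, others at most 5.0). Their part in these low values was not tested. Fosl2, Tex2 and Ifngr1 were picked for their likeness to Epas1, so they are not separate observations. WT array 1 was at 5.57 for Hif1an, against 5.79 to 5.86 on the other WT arrays.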

How the results depend on the processing

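Over 20 alternatives the Epas1 difference stayed between 1.76 and 2.20. The trended robust prior, the balanced blocks and the filter cannot move a difference. Nor can the choice of probe set for a gene with 1, such as Epas1. In these alternatives its difference of 1.93 was therefore fixed in advance. Small differences turned sign in some alternatives: Vhl and Egln3 in 4 each, and Hif1a, Arnt, Egln2 and Hif1an in 1 each, while Hif3a and Egln1 kept theirs. Hif3a moved to -0.37 in the second set of codes and -0.03 without LKB1-deficient arrays 1, 4 and 5; Egln3 moved to 0.57 and Hif1an to -0.03 in the second set. Stk11 was past the threshold without LKB1-deficient arrays 1, 4 and 5 (-0.75), and Ccnd1 turned to -0.10 there.

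With all arrays 52 genes were higher and 184 lower. The counts were 79 and 307 with a trended robust prior, 423 and 46 in the second set of codes alone, and 0 and 0 in the first set alone, where limma gave 2247 genes at an unadjusted p under 0.05. Without LKB1-deficient arrays 1, 4 and 5, 154 were higher. Lower genes numbered 284 without the dimmest 40% of genes, 285 with array medians subtracted (49 higher) and 103 with a second quantile normalization (67 higher), so the split of higher against lower moved with the scaling. The median difference of all genes was 0.003. It was -0.041 without the dimmest 40% of genes, -0.036 with array medians subtracted and -0.008 with a second quantile normalization. Leaving out 1 array gave 8 to 180 higher and 30 to 340 lower genes, the lowest counts without WT 4 and the highest without LKB1-deficient 1, and 1 or both counts moved by over 1.5 times without LKB1-deficient 1, 3 or 4 or any of the WT arrays.

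The replicate number as a block gave 14 higher and 36 lower genes, with Npas4 (adjusted p = 0.0573) and Fam162a (0.0919) no longer past and Cxcr4 still past (0.0487). The labels do not state whether the numbers pair the samples. Deviations from group means of same-numbered arrays correlated at -0.079 to 0.102, and 2 of 5 LKB1-deficient arrays correlated best with their own number. So few arrays cannot decide whether the samples were paired. With this block, and in each set of codes alone, 0 PAS domain factors and 0 hypoxia-inducible targets were called lower. In the first set alone 0 hypoxia-inducible targets were higher. In the second 2 were, Cxcr4 and Hmox1, beside 2 HIF-2 alpha targets, Slc40a1 and Ccnd1. Without LKB1-deficient arrays 1, 4 and 5 the difference was 0.70 for Cxcr4, -0.33 for Hmox1, -0.43 for Slc40a1 and -0.10 for Ccnd1. A trended robust prior called 1 glucose metabolism gene (Gapdh, adjusted p = 0.0466) and 2 hypoxia-inducible targets lower. Leaving out 1 array gave 0 to 2 hypoxia-inducible targets higher and 0 to 1 lower. The causes of these shifts were not tested. Where an alternative leaves out arrays or genes, their number and their identity change together.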
